A study of Mus musculus with 8 samples.

Results

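The matrix metalloproteinase (MMP), ADAMTS and ADAMTS-like genes and the genes of their tissue inhibitors (TIMPs) were followed in mouse embryonic fibroblasts with and without the transcription factors STAT5A and STAT5B. All genes were taken whose annotated symbol begins with Mmp, Adamts, Adamtsl or Timp and a digit, each through the probe set with the highest mean. This gave 42 of the 18193 genes measured, made up of 18 MMP, 15 ADAMTS, 5 ADAMTS-like and 4 TIMP genes. Expression was read on 8 Affymetrix arrays, 2 for each of 4 groups. The groups crossed 2 genotypes, wild type (called control here) and Stat5a/b-null, with the absence or presence of growth hormone (GH). All cells carried the C57BL/6 strain label, were at passage 13 and had been starved for 5 hours. GH was then given at 1 ug/ml for 2 hours or left out.

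MMPs are zinc proteases that cut collagens, proteoglycans and other matrix proteins, and most are made as inactive proenzymes. ADAMTS proteases are secreted relatives that cut the hyalectans (versican and aggrecan), trim procollagens or act on other matrix proteins, while ADAMTS-like proteins share their non-catalytic domains and lack the protease domain. TIMPs bind the active site of these proteases and block it. In fibroblasts several MMP genes are known as targets of inflammatory cytokines and growth factors through AP-1, a dimer of FOS and JUN proteins.

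Values are log2 intensities from the robust multi-array average (RMA), so a difference of 1 is a 2-fold change. They carry no detection call. A group mean under 6.10, which is the lower quartile over all genes, was taken as dim, and no fold change is given against it, while 8.04 was the median of all gene values. By this measure 7 members were dim in all 4 groups (Adamts15, Adamts18, Adamts19, Adamts20, Mmp1a, Mmp1b and Mmp20) and 2 in 1 genotype (Mmp12 and Adamts3). The other 33 were dim in no group. Replicate arrays correlated at 0.997 to 0.998. Replicates are labelled biological, with no word on separate embryos or cultures, and p-values therefore cover array-to-array spread alone, which may be technical. How many embryos stand behind each genotype is likewise unstated, so genotype and cell line cannot be told apart. Stat5a lay between 7.15 and 7.83 on the 4 control arrays and between 5.57 and 5.84 on the 4 null arrays. Stat5b, the other deleted gene, read 7.89 to 8.06 on the control arrays and 6.93 to 7.33 on the null arrays, 1.62-fold lower without GH and 1.91-fold lower with it, and was dim in no group. The part of each gene that was deleted is unstated, so whether these probe sets lie in it was not tested. All 12 fibroblast markers were above the dim limit in every group. Without GH 5 of them were called higher and 1 lower in null cells, where all genes gave 24.8% and 22.7%. Lum (19.9-fold), Pdgfra (13.9-fold) and Dcn (11.9-fold) were among those higher, and Fn1 (1.96-fold) was the 1 lower.

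Mmp3 and Mmp13, whose GH effects differed between the genotypes as described below, lie in a run of MMP genes on chromosome 9. In the RefSeq gene order of GRCm38.p6 this run reads Mmp13, Mmp12, Mmp1b, Mmp3, Mmp1a, Mmp10, Mmp8, Mmp27, Mmp20 and Mmp7, and 9 of these 10 genes are members here. Promoter windows of RefSeq (GRCm38.p6), the 250 bases before the start of transcription, were matched for 27 of the 42 members. The other members, among them Mmp9, Adamts4, Adamts6 and Adamts7, had no window and were not searched. The windows were searched on both strands for the AP-1 letters TGANTCA, for the STAT letters TTCNNNGAA and for the NF-kB motif. The last 120 bases before the start are shown for 6 neighbours that differed in their response, with the AP-1 letters in capitals, 5′ to 3′.
Mmp3, chr9:7445702-7445821, plus strand: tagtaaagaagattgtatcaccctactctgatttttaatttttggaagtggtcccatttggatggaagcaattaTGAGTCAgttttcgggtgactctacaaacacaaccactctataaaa
Mmp13, chr9:7272394-7272513, plus strand: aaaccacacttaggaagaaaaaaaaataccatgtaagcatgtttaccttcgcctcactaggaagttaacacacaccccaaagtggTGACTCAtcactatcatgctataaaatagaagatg
Mmp12, chr9:7347254-7347373, plus strand: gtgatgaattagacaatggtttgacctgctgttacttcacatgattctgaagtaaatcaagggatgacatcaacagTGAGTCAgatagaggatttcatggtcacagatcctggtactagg
Mmp10, chr9:7502222-7502341, plus strand: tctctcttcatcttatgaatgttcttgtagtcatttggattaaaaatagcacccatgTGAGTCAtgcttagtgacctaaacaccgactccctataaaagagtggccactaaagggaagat
Mmp1a, chr9:7464021-7464140, plus strand: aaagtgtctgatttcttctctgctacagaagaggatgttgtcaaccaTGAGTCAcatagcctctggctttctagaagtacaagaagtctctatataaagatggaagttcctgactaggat
Mmp8, chr9:7558309-7558428, plus strand: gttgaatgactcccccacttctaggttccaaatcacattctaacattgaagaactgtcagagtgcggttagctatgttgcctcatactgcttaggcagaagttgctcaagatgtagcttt

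The AP-1 letters occurred in 6.75% of the 32851 promoter windows of all genes and in 8 of the 30 windows of the members searched. Each of the 8 belongs to a different member. All 8 lie in the chromosome 9 run, where Mmp8 was the member without them. In Mmp3 they begin 46 bases before the start, in Mmp13 35, in Mmp12 44, in Mmp10 63 and in Mmp1a 73. Mmp12 has 1 more annotated window, which is not shown. The STAT letters were found in 7.02% of all windows and in 1 of the 30 member windows, which belongs to Mmp23. The NF-kB letters were found in 1.41% of all windows and in none of the members searched. Mmp1a, dim on every array, carries the AP-1 letters as Mmp3 does, and so do Mmp1b and Mmp20, also dim on every array and not shown. Mmp7, not shown either, carries them too, and it was dim in no group and not called with GH in either genotype. Whether the letters set apart the genes that moved was not tested, since several of those genes had no window. A match describes the sequence and is not evidence of binding.

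Without GH the null cells had more transcript of the gelatinase gene Mmp2 and of Mmp19, and less of the elastase gene Mmp12, of Timp1, Adamts12, Adamts9 and Adamtsl3. Of the 42 members, 24 differed between the genotypes in limma's test (9 higher and 15 lower in null cells, adjusted p below 0.05 over all genes), against 47.5% of all genes. The members called made up 57.1%, near that background. Lower calls took 35.7% of members against 22.7% of all genes, and higher calls 21.4% against 24.8%. At least 2-fold differences were found for 4 members higher and 8 lower, where all genes gave 5.56% and 6.13%. The median log2 difference was -0.06 for the members and 0.03 for all genes. In bulk RNA, fewer cells of a type and less RNA per cell cannot be told apart.

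The gelatinases were both higher in null cells. Mmp2, which encodes a protease for denatured and basement membrane collagen, read 12.11 and 11.96 on the control arrays and 13.73 and 13.89 on the null arrays without GH. With GH it read 12.05 and 12.19 in control cells and 13.91 on both null arrays. The genotypes did not overlap, and the difference was 3.42-fold without GH (log2 difference 1.78 ± 0.10 SE, adjusted p = 2.02e-08) and 3.46-fold with it (1.79 ± 0.10). A second probe set of Mmp2 gave 1.94 and 1.95. Mmp9, the other gelatinase gene, was higher by 0.79 ± 0.11 without GH and is described with the GH response.

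Mmp19, a secreted MMP, read 7.97 and 8.11 in control cells and 9.95 and 10.16 in null cells without GH. With GH the arrays read 7.77 and 7.97 against 9.86 and 9.79. Null cells were thus 4.04-fold higher without GH (2.01 ± 0.11, adjusted p = 1.34e-08) and 3.88-fold higher with it, with no overlap, and the other probe set gave 1.85 and 1.62. Mmp11, the stromelysin-3 gene, rose from 10.39 and 10.31 in control to 11.36 and 11.43 in null cells (1.05 ± 0.09, adjusted p = 9.98e-07). With GH it read 10.57 and 10.59 against 11.23 and 11.37 (0.72 ± 0.09), and the difference between the states did not pass the test (-0.33 ± 0.13, adjusted p = 0.197).

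Membrane-type MMPs, which work at the cell surface, went both ways. Mmp14, whose product activates the MMP2 proenzyme, read 13.00 and 12.93 in control and 13.81 and 13.76 in null cells (0.82 ± 0.09, 1.77-fold, adjusted p = 5.47e-06). Its 3 probe sets were all higher in null cells in both GH states. Mmp17, which encodes an MMP with a glycolipid anchor, read 8.55 and 8.52 in control and 7.61 and 7.41 in null cells, a 2.04-fold lower level (-1.03 ± 0.09). With GH it read 8.45 and 8.41 against 7.40 and 7.44 (-1.01 ± 0.09). Mmp16 was lower as well (-0.71 ± 0.10 without and -0.63 ± 0.10 with GH), in all 4 probe sets. The dimmest of these was dim in every group and another in null cells. Mmp24 did not pass the test in either state (0.20 ± 0.10 and 0.05 ± 0.10).

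Mmp12, the gene of macrophage elastase, read 9.07 and 9.23 in control cells without GH and 9.47 and 9.22 with GH. The 4 null arrays read 5.18, 5.07, 5.95 and 5.71, all below the dim limit, so no fold is given (adjusted p = 6.20e-11 without GH). Macrophage and leukocyte markers moved with it. All 12 markers of that list were called lower in the null arrays, without and with GH, where all genes gave 22.7% and 23.1%. Their summed level was 14.66 to 14.75 on control arrays and 11.21 to 11.36 on null arrays without GH, on the log2 scale, and 14.77 to 14.86 against 11.37 to 11.46 with GH. The leukocyte gene Ptprc, Itgam and Aif1 were dim in null cells in both GH states, while the macrophage gene Lyz2 had group means of 13.90 and 13.83 in control cells and 8.58 and 8.54 in null cells. The part of these cells in the Mmp12 difference, or in that of any other member, was not tested.

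Of the 4 TIMP genes, 3 were called lower in null cells and none higher, in either GH state, where 22.7% of all genes were called lower without GH and 23.1% with it. Timp1, the inducible inhibitor, read 13.77 and 13.83 in control and 12.41 and 12.40 in null cells without GH, a 2.62-fold difference (-1.39 ± 0.08, adjusted p = 4.09e-08). With GH the arrays read 13.78 on both control arrays and 12.76 and 12.81 on the null arrays (-0.99 ± 0.08). Timp3, a matrix-bound inhibitor that also blocks ADAMTS proteases, was lower by -0.71 ± 0.09 and -0.61 ± 0.09 in the 2 states, and its 4 probe sets were lower in both. Timp2 was lower by -0.56 ± 0.09 and -0.51 ± 0.09 in the probe set used. Only 4 of its 6 probe sets were called lower without GH and 1 with GH, and the others pointed the same way. Timp4 read between 6.03 and 6.40 on all arrays and was not called.

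Of the 7 ADAMTS genes of the hyalectan-cleaving group, 3 were lower in null cells without GH and none was higher, where all genes gave 22.7% and 24.8%. The other probe set of Adamts4, a gene of this group, was called higher in null cells without GH (adjusted p = 8.63e-07), against a dim control level. Adamts9 read 8.48 and 8.17 in control and 6.66 and 6.64 in null cells (-1.68 ± 0.11, 3.20-fold, adjusted p = 8.65e-08). With GH it read 8.31 on both control arrays and 7.24 and 7.08 on the null arrays (-1.15 ± 0.11). Of its 3 probe sets 1, dim in no group, was called in neither comparison. Its dimmest probe set was called lower in both, but was dim in every group. Adamts5, the main aggrecanase gene of mouse cartilage, read 12.81 and 12.82 against 11.80 and 11.97 (-0.93 ± 0.09, adjusted p = 4.58e-06). It had 3 probe sets lower in both states and 1 more, dim in every group, that was higher. Adamts1 was lower by -0.75 ± 0.09 without and -0.51 ± 0.09 with GH.

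Adamts12 and Adamts7 encode relatives that cut cartilage oligomeric matrix protein (COMP), and they differed in opposite directions. Adamts12 read 10.02 and 10.04 in control and 7.80 and 8.18 in null cells without GH, and 10.01 and 9.82 against 8.07 and 8.10 with GH. It was 4.10-fold lower in null cells without GH (-2.03 ± 0.12, adjusted p = 3.47e-08) and 3.56-fold lower with it. Adamts7 was higher in null cells by 0.68 ± 0.10 in either state. Adamts6 and Adamts10, which form a closely related pair, were both lower, Adamts10 by -0.54 ± 0.09 without GH and -0.32 ± 0.09 with it. The other probe set of Adamts10 was called lower with GH only. Adamts16 was not called, although its other probe set was called higher in null cells without GH (0.68, adjusted p = 0.000268).

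Adamts3, a procollagen N-proteinase gene, read 5.01, 5.17, 5.23 and 5.22 on the control arrays, below the dim limit, and 6.43, 6.30, 6.46 and 6.12 on the null arrays. It was called higher in null cells in both states (adjusted p = 1.51e-06 and 8.15e-06), with no size given, and its other probe set was not called. Among the ADAMTS-like genes, Adamtsl3 read 8.87 and 8.76 in control and 6.99 and 6.36 in null cells without GH. With GH it read 8.55 and 8.62 against 6.43 and 6.53. The fall was 4.40-fold without GH (-2.14 ± 0.16, adjusted p = 2.49e-07) and 4.30-fold with it. Adamtsl4, whose product binds fibrillin, was higher (0.77 ± 0.10 and 0.56 ± 0.10), and Adamtsl5 lower (-0.52 ± 0.09 and -0.68 ± 0.09). The other probe set of Adamtsl5 was called in neither state (-0.28 and -0.29).

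**Figure D1:**
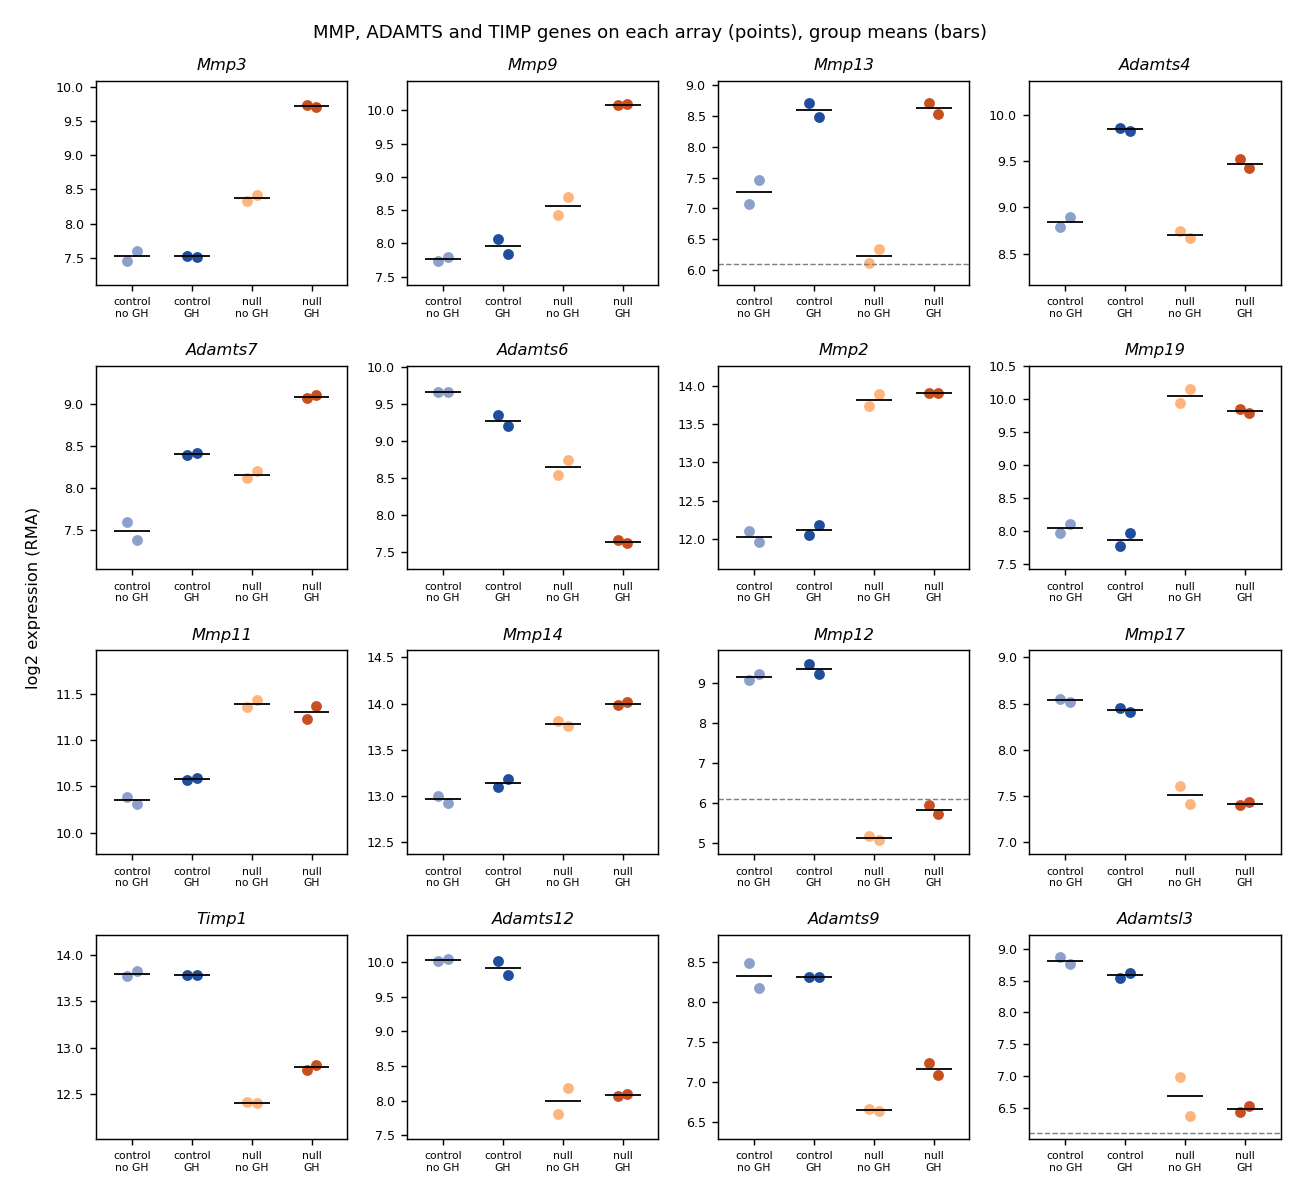
Log2 expression (RMA, vertical axis) of 16 members on each of the 8 arrays. Points are arrays, bars are group means, the dashed line is the dim limit of 6.10 where the axis reaches it, and each panel has its own axis. Mmp2, Mmp19, Mmp11 and Mmp14 sit higher on the null arrays, Mmp12, Mmp17, Timp1, Adamts12, Adamts9 and Adamtsl3 lower, and Mmp3 and Mmp9 are highest in null cells with GH.

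With GH 28 of 42 members differed by genotype (11 up and 17 down in null cells), where 45.3% of all genes were called, 22.2% higher and 23.1% lower. The members gave 66.7%, 26.2% and 40.5%. Those at least 2-fold apart were 5 higher and 6 lower, against 4.84% and 5.98% of all genes. Of the 24 members called without GH, Mmp13 was the 1 not called with GH (0.02 ± 0.14, adjusted p = 0.923). Mmp10, Adamtsl1, Mmp23, Adamts4 and Mmp20 were called with GH and not without it, at sizes of -0.37 to 0.28, and the dim Mmp20 has no size that can be read. The difference between the states passed the test for none of the 5 (adjusted p = 0.301 to 0.745). Other probe sets of Adamtsl1 (0.97), Mmp23 (-0.28) and Adamts4 were called without GH as well. Calls for Adamts10, Adamtsl1, Mmp10, Mmp20 and Mmp23 were lost when single arrays of the GH groups were left out, with values of -0.31 and -0.29 for Adamts10, 0.21 to 0.32 for Adamtsl1, 0.20 to 0.33 for Mmp10 and -0.32 to -0.23 for Mmp23.

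**Figure D2:**
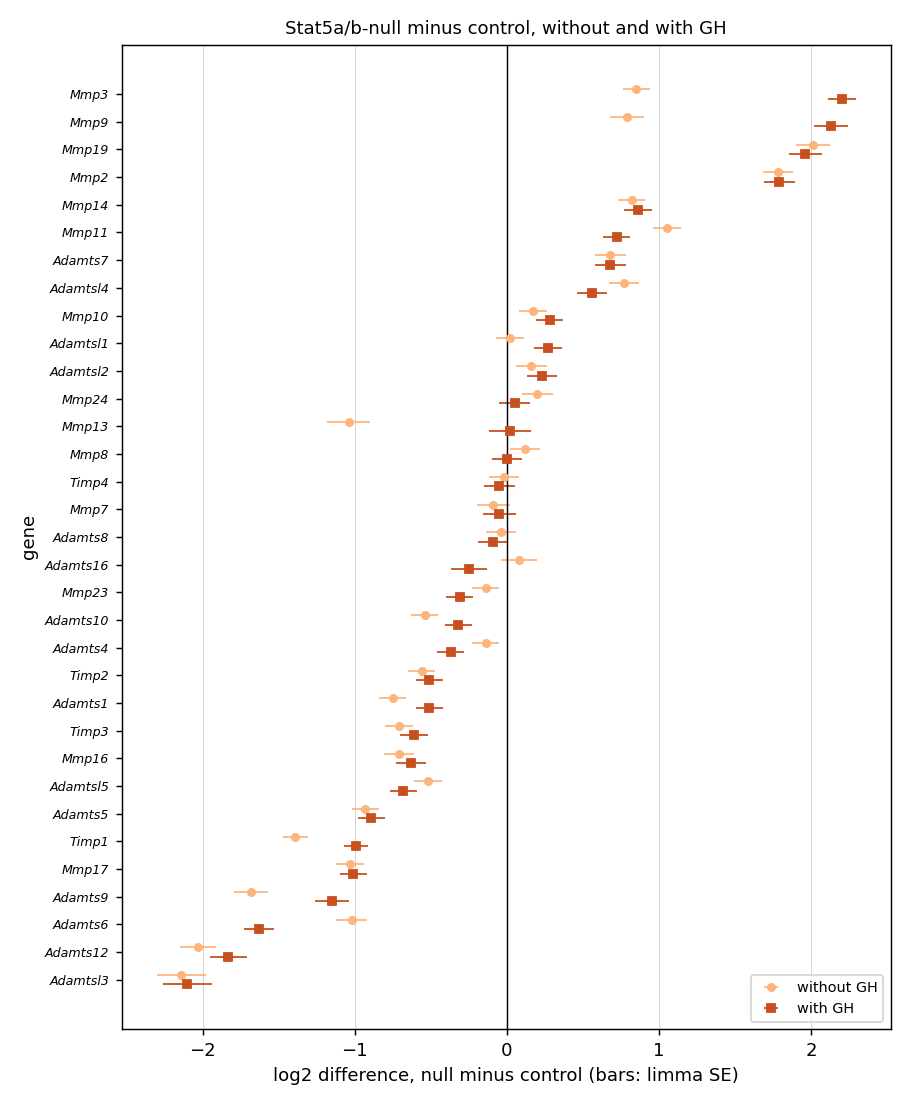
Log2 difference of null minus control cells (horizontal axis) for the 33 members that were dim in no group, without GH (circles) and with GH (squares). Bars are limma standard errors from 2 arrays per group. The members Mmp3 (0.85 and 2.20), Mmp9 (0.79 and 2.13) and Mmp13 (-1.04 and 0.02) differ between the states.

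GH raised 3 members in control cells, the collagenase gene Mmp13 and the ADAMTS genes Adamts4 and Adamts7, and lowered Adamts1. These 4 called members were 9.52% of the 42, where 2.62% of all genes were called (1.72% higher and 0.896% lower). At least 2-fold changes were found for 1 member, Mmp13, higher, where all genes gave 0.66% (0.577% higher and 0.0824% lower). With each array centred on its median, or normalized by quantiles once more, 3 members were higher and 2 lower. In null cells 8 members rose and 1 fell, which was 21.4% of the members against 11.7% of all genes (5.36% higher and 6.35% lower). Leaving out single null arrays lowered the share of all genes called to between 4.5% (without replicate 2 with GH) and 7.39% (without replicate 3 without GH). It was 5.41% without replicate 2 of the null cells without GH and 5.68% without replicate 3 of those with GH. The members called then numbered 7 to 9, with 6 higher and 3 lower without replicate 3 of the null cells without GH. Rises were 45.8% of all calls there, and 61.2% after centring each array on its median. The members that rose in null cells were Mmp13, Mmp9, Mmp3, Adamts7, Adamts4, Mmp12, Adamts9 and Timp1, and Adamts6 fell. Of these, 3 rose and 1 fell at least 2-fold, where all genes gave 0.868% (0.759% higher and 0.11% lower). The comparisons within each genotype share arrays with the genotype comparisons above.

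Mmp13, the main interstitial collagenase gene of the mouse, rose in both genotypes. It read 7.07 and 7.46 in control cells without GH and 8.72 and 8.49 with GH, a 2.53-fold rise (1.34 ± 0.14, adjusted p = 8.03e-05). In null cells it read 6.11 and 6.34 without GH, close to the dim limit, and 8.71 and 8.54 with GH, a 5.30-fold rise (2.41 ± 0.14, adjusted p = 3.23e-07). Null cells thus lay below control cells without GH (-1.04 ± 0.14), and the genotypes overlapped with GH.

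Mmp3, the stromelysin-1 gene, did not pass the test in control cells and rose in null cells. The control arrays read 7.46 and 7.60 without GH and 7.53 and 7.51 with GH (-0.01 ± 0.09, adjusted p = 0.994). The null arrays read 8.33 and 8.42 without GH and 9.73 and 9.70 with GH, a 2.53-fold rise (1.34 ± 0.09, adjusted p = 1.45e-06). Null cells were therefore 1.80-fold above control cells without GH and 4.58-fold above them with GH (2.20 ± 0.09, adjusted p = 1.34e-09).

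Mmp9, which encodes the gelatinase of inflamed tissue, followed a like pattern. Control arrays read 7.73 and 7.80 without GH and 8.07 and 7.84 with it (0.19 ± 0.11, adjusted p = 0.678). Null arrays read 8.42 and 8.69 without GH and 10.08 and 10.09 with it, a 2.88-fold rise (1.53 ± 0.11, adjusted p = 2.74e-06). The genotypes did not overlap in either state, and null cells were 4.38-fold higher with GH. The other probe set rose by 1.37 in null cells (adjusted p = 4.00e-06) and by 0.34 in control cells (adjusted p = 0.12). Of 8 neutrophil markers S100a8 and S100a9 were dim in all groups, and Mpo in all but null cells without GH. Camp, at 6.29 to 6.63 in control and 7.01 to 7.64 in null cells, was the 1 called higher in null cells. All genes gave 24.8% higher without GH and 22.2% with it. Camp also rose with GH in null cells (0.55 ± 0.10, adjusted p = 0.00538) and was not called in control cells (0.18 ± 0.10). Between its dim levels S100a8 was called lower in null cells with GH (adjusted p = 0.0117). The part of such cells in the Mmp9 values was not tested.

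The GH effects differed between the genotypes in 4 members, 9.52% of the 42, where 5.16% of all genes were called (2.83% higher and 2.33% lower, with the effect in control cells subtracted from that in null cells). At least 2-fold differences were found for 3 members, all higher, where all genes gave 1.13% (0.621% higher and 0.511% lower). Higher values were 54.9% of all calls, and 69.1% after centring each array. The difference of the GH effects was 1.35 ± 0.13 for Mmp3 (adjusted p = 6.49e-05), 1.34 ± 0.16 for Mmp9 (adjusted p = 0.000347), 1.07 ± 0.19 for Mmp13 (adjusted p = 0.00771) and -0.61 ± 0.14 for Adamts6 (adjusted p = 0.0222). The second Mmp9 probe set gave 1.03 (adjusted p = 0.00098). For Adamts6 the other probe set, dim in null cells, was called in the opposite direction (adjusted p = 0.0039). Without replicate 2 of null cells with GH the count fell to 2, and the share of all genes called to 2.4%, with Mmp13 at 0.98 (adjusted p = 0.0679) and Adamts6 at -0.64 (adjusted p = 0.0799). Adamts6 also lost its call without replicate 2 of control cells with GH, replicate 3 of null cells without GH or replicate 3 of null cells with GH, at -0.59 to -0.52.

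**Figure D3:**
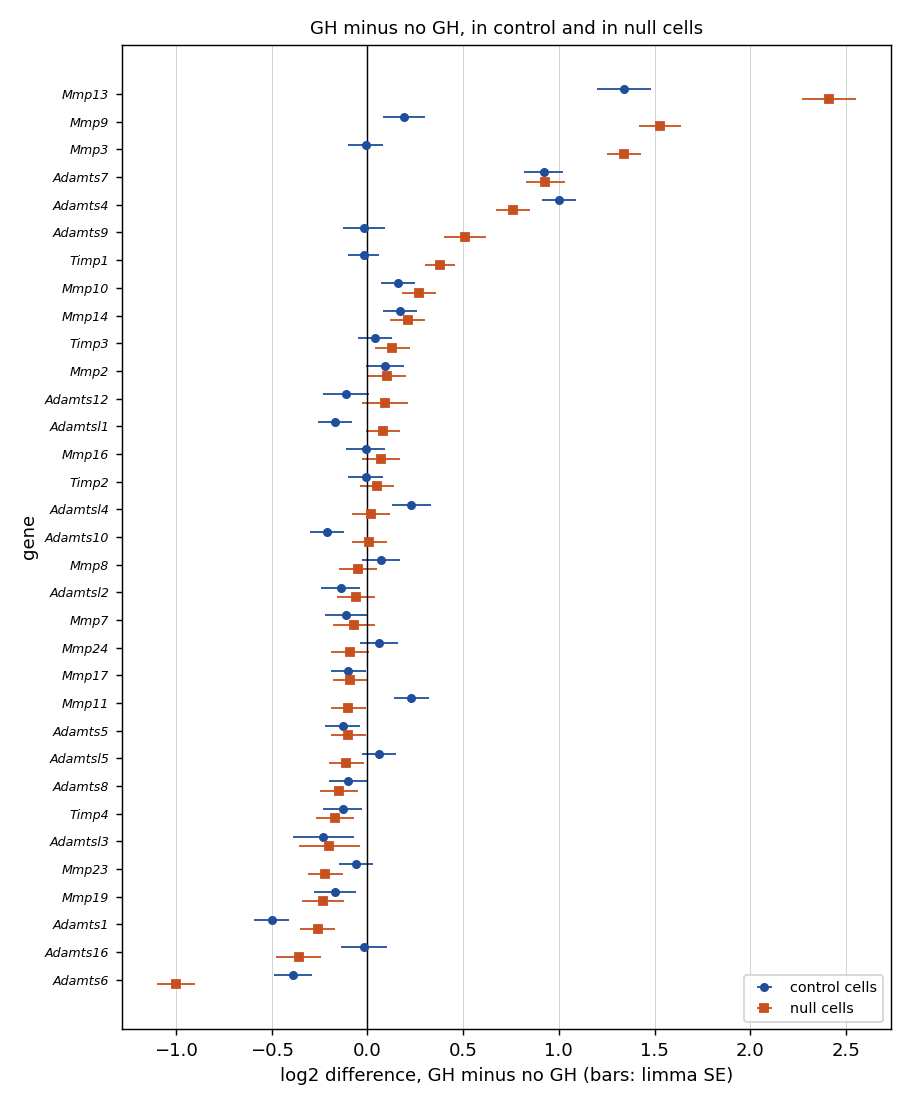
Log2 difference of GH minus no GH (horizontal axis) for the same 33 members in control cells (circles) and null cells (squares). Bars are limma standard errors from 2 arrays per group. Mmp13, Adamts7 and Adamts4 lie to the right in both genotypes, Mmp9 and Mmp3 in null cells, and most other members near 0.

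The aggrecanase gene Adamts4 rose with GH in both genotypes. It read 8.79 and 8.90 without GH and 9.86 and 9.83 with GH in control cells (1.00 ± 0.09, adjusted p = 2.17e-05), and 8.74 and 8.67 against 9.52 and 9.42 in null cells (0.76 ± 0.09, adjusted p = 0.000187). The other probe set rose in control cells from a dim level (adjusted p = 0.000105) and by 1.00 in null cells. The probe sets did not share a direction between the genotypes. The one used was lower in null cells with GH (-0.37 ± 0.09) and the other higher (1.26), so the genotype difference of Adamts4 is not settled.

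Adamts7 rose to a similar degree in both genotypes, from 7.60 and 7.38 to 8.40 and 8.42 in control cells (0.92 ± 0.10, adjusted p = 9.74e-05). In null cells it went from 8.12 and 8.20 to 9.07 and 9.11 (0.93 ± 0.10, adjusted p = 6.94e-05). The groups with and without GH did not overlap in either genotype, and the difference of the effects was 0.01 ± 0.14 (adjusted p = 0.986).

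Adamts6 read 9.67 and 9.66 in control cells without GH, 9.35 and 9.20 with GH, 8.55 and 8.74 in null cells without GH and 7.66 and 7.62 with GH. It fell 2.01-fold in null cells with GH (-1.0 ± 0.10, adjusted p = 3.53e-05) and was not called in control cells (-0.39 ± 0.10, adjusted p = 0.0607). Its other probe set fell by 0.91 in control cells (adjusted p = 0.000223). That probe set was dim in null cells with and without GH, at group means of 5.95 without and 5.91 with it. Whether a fall could show at that level was not tested. Its difference of the GH effects was called in the opposite direction, higher in null cells (adjusted p = 0.0039). The difference of the GH effects of Adamts6 is therefore not settled. Both probe sets were called lower in null cells. The plot of probe sets shows these cases.

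**Figure D4:**
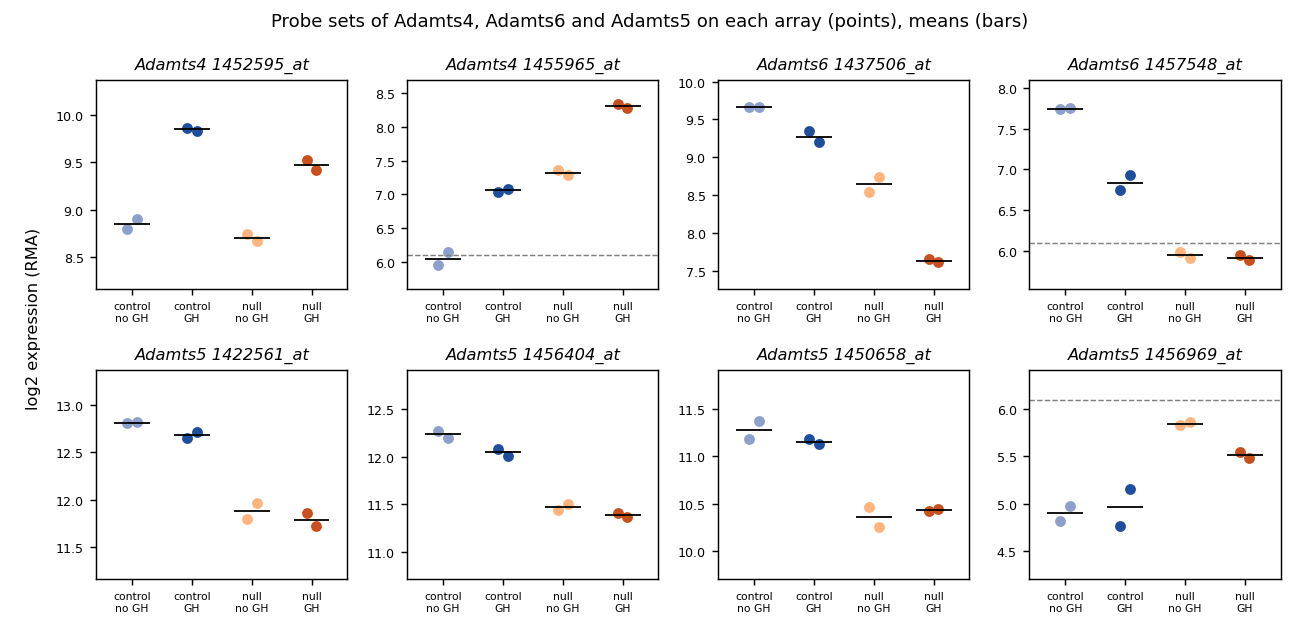
Log2 expression (RMA, vertical axis) of the probe sets of Adamts4, Adamts6 and Adamts5 on each array. Points are arrays, bars are group means and the dashed line is the dim limit of 6.10. Both Adamts4 probe sets rise with GH but differ between genotypes in opposite directions with GH, the second Adamts6 probe set is dim in null cells, and 1 of the 4 Adamts5 probe sets is dim throughout.

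Smaller GH effects were called for Adamts1 in control cells, where it read 11.92 and 11.87 without GH and 11.37 and 11.42 with GH (-0.50 ± 0.09, adjusted p = 0.0106). In null cells it gave -0.26 ± 0.09 (adjusted p = 0.0961). The call in control cells was lost without replicate 2 (-0.47, adjusted p = 0.102) or replicate 3 (-0.53, adjusted p = 0.0569) of control cells with GH, and without replicate 2 of those without GH (-0.47, adjusted p = 0.0623). In null cells Adamts9 (0.51 ± 0.11, adjusted p = 0.0105) and Timp1 (0.38 ± 0.08, adjusted p = 0.0127) rose. The call of Timp1 was lost without any 1 of the 4 null arrays (0.35 to 0.40). That of Adamts9 was lost without either null array that had no GH and without replicate 2 of null cells with GH (0.43 to 0.52), and its other probe sets were not called. Mmp12 was called higher with GH in null cells (adjusted p = 0.00213), between dim levels. Mmp2, Mmp14 and Mmp19 were not called in either genotype, with GH effects from -0.23 to 0.21, although 1 of the 3 Mmp14 probe sets was called higher in null cells (0.41).

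In the chromosome 9 run the 9 members did not move as a block. With GH in null cells Mmp13, Mmp3 and Mmp12, the last between dim levels, were called higher and 6 were not called. The called members were 33.3% of the 9, where 5.36% of all genes were called higher. The values not called were 0.27 ± 0.09 for Mmp10 (adjusted p = 0.0781), which lies between Mmp1a and Mmp8, -0.05 ± 0.10 for Mmp8 and -0.07 ± 0.11 for Mmp7. Mmp1a, Mmp1b and Mmp20 stayed dim, at 3.77 to 4.28 on all arrays. Adamts1 and Adamts5, neighbours on chromosome 16, were both lower in null cells.

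The lists of other genes of the pathway gave the setting of these changes. Genes of known inducers of MMPs were called in 8 of 24 cases with GH in control cells (7 higher) and in 11 in null cells (10 higher), and the GH effect differed between the genotypes in 11 (8 higher and 3 lower in null cells). All genes gave 2.62%, 11.7% and 5.16%, against 33.3%, 45.8% and 45.8% of this list. The cytokine genes Il1b and Tnf rose in control cells. Il1b read 6.23 and 6.19 without GH and 9.57 and 9.59 with it, while the null arrays read 6.10 to 6.26 in both states (difference of the effects -3.47 ± 0.12, adjusted p = 1.60e-08). Tnf rose by 3.37 ± 0.13 in control cells and gave 0.08 ± 0.13 in null cells. Beside them, 2 of the 12 macrophage and leukocyte markers rose in control cells, Cd14 by 1.79 ± 0.10 and Spi1 by 0.62 ± 0.13, and the part of these cells in the Il1b and Tnf rise was not tested.

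Some other inducers had the larger GH effect in null cells. The AP-1 subunit gene Fosl1 read 9.45, 9.59, 9.33 and 9.35 on the control arrays, the last 2 with GH. In null cells it went from 8.58 and 8.42 to 9.89 and 10.05 (1.47 ± 0.10, difference of the effects 1.65 ± 0.14, adjusted p = 3.03e-05). Jun rose by 1.45 ± 0.10 in null cells and gave 0.35 ± 0.10 in control cells (adjusted p = 0.0974), with a difference of 1.1 ± 0.14. The cytokine gene Il6 rose in both, by 1.28 ± 0.13 in control cells and from a dim level to 6.76 and 6.56 in null cells. Lif, a gene of the same cytokine family, also rose in both, by 1.22 ± 0.10 in control and 2.22 ± 0.10 in null cells. Hbegf, an EGF receptor ligand gene, instead had its larger GH effect in control cells. It fell by 1.05 there and gave 0.27 ± 0.12 in null cells (adjusted p = 0.169). The AP-1 genes did not move together. Junb rose in both genotypes (1.11 ± 0.12 in control and 1.29 ± 0.12 in null cells, difference 0.18 ± 0.18, adjusted p = 0.692). Fos fell by 0.70 with GH in null cells (adjusted p = 0.00381). It was higher in null than in control cells both without GH (2.05 ± 0.13) and with it (1.64 ± 0.13). The GH effects of Fosb, Fosl2 and Jund were called in neither genotype. A link between any of these genes and the MMP genes was not tested.

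**Figure D5:**
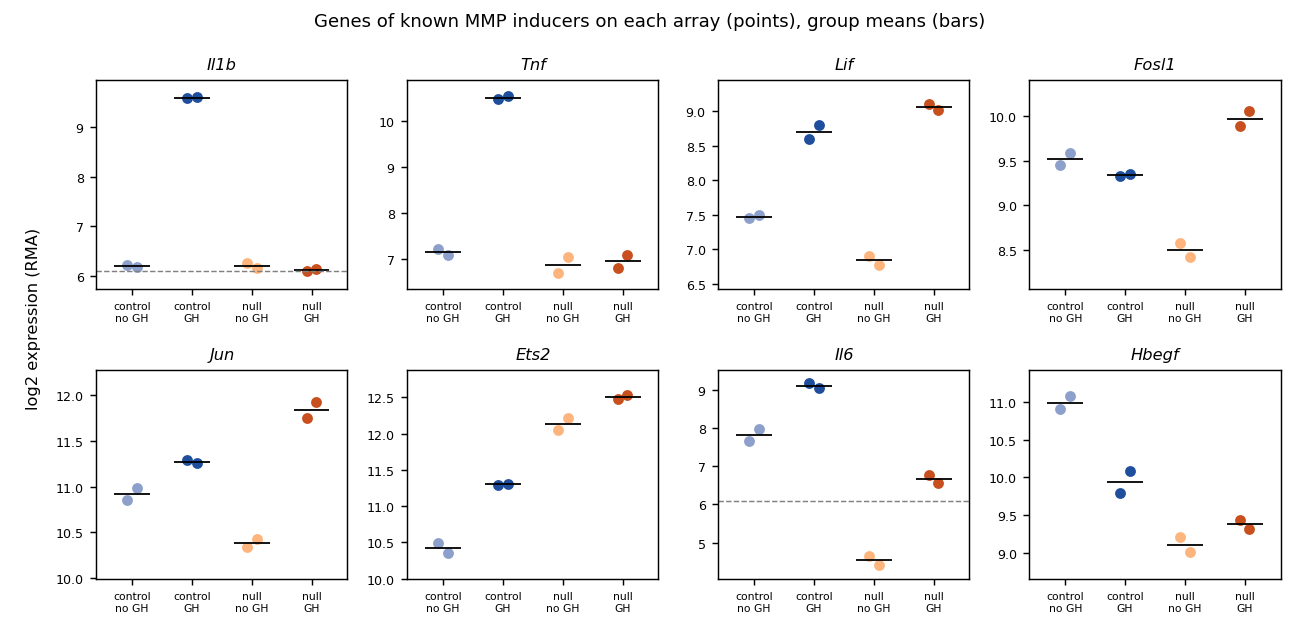
Log2 expression (RMA, vertical axis) of 8 genes of known MMP inducers on each array. Points are arrays, bars are group means and the dashed line is the dim limit of 6.10 where the axis reaches it. Il1b and Tnf stand out in control cells with GH, whereas Fosl1 and Jun reach their highest values in null cells with GH.

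Between the genotypes, the other lists went both ways without GH, where 24.8% of all genes were called higher and 22.7% lower. Of 11 plasminogen activation and serpin genes, 1 was higher and 4 lower, with the tissue plasminogen activator gene Plat at 0.72 ± 0.10 and the urokinase receptor gene Plaur at -1.64 ± 0.10. Of 12 ADAM genes, 2 were higher and 7 lower, with Adam22 at 1.29 ± 0.11, and Adam8 (-1.98 ± 0.09) and Adam23 (-1.73 ± 0.10) lower. Of 20 activators and inhibitors outside the TIMPs, 3 were higher and 8 lower. The thrombospondin genes Thbs2 (1.71 ± 0.10) and Thbs1 (-1.73 ± 0.11) differed in opposite directions, and Furin, a convertase that cuts the propeptides of many of these proteases, was lower (-0.94 ± 0.11). Of 12 tolloid and other secreted matrix protease genes, 3 were higher and 5 lower, among them the serine protease gene Htra1 (-2.96 ± 0.09, 7.80-fold).

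Substrate genes were mostly not called without GH, with 2 of 13 higher and 2 lower. The hyalectan gene Vcan was lower (-0.64 ± 0.10), as was Fn1 (-0.97 ± 0.09), while Col3a1 (0.32 ± 0.09) and the small proteoglycan gene Dcn (3.57 ± 0.08) were higher. The aggrecan gene Acan read 6.50 to 6.74 as group means and was not called. Smooth muscle genes also differed between the genotypes, with 5 of 6 lower and 1 higher and a summed level of 16.13 to 16.16 on control and 15.37 to 15.39 on null arrays. Their part in the differences above was not tested.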

How the data were processed

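Expression of 8 arrays in 4 groups of 2 was analysed. The authors made the deposited log2 values with Partek 6.10.0511 and RMA per the submitters' processing notes, with settings not given in the sources used here. RMA removes background and equalises the arrays, so a shift shared by most genes would not show. Groups and replicate numbers (2 and 3) came from the array titles. For 1 null array without GH the source label gives 3 where the title gives 2. Precision is limited by the number of arrays (the gene-wise residual SD had a median of 0.097).

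Of 45101 probe sets, 64 controls were left out, and 34945 had 1 annotated gene, 932 several and 9160 none. Symbols were updated through Entrez identifiers with the gene table of GRCm38.p6. The probe set with the highest mean stood for a gene, which mattered for 21 members. All genes were fitted in limma 3.58.1 (R 4.3.3) with 1 mean per group and moderated variances, and p-values were adjusted by Benjamini-Hochberg over the 18193 genes of a comparison, with 0.05 as the threshold. Errors are limma's standard errors (SE). The fit was tested on simulated data.

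The members, gene lists, motifs and dim limit were chosen with earlier results of these data known. Every array is printed for members called with a log2 difference of at least 1 and a group mean at or above the median of all genes. Mmp14, Adamts1, Adamts3, Adamts4, Adamts5 and Adamts7 were added after their values were seen. From each other list, genes with the lowest p in a comparison are named, and Furin, Acan, Junb, Fos, Fosb, Fosl2 and Jund were also chosen after their values were seen. Other probe set rules, scalings, filters, fits and left-out arrays were tried as alternatives.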

Additional observations from a re-analysis of the deposited data

Results flagged for a closer look

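GH effects that differed between the genotypes by limma's interaction test were found for 4 members, as values of null minus control cells with 2 arrays per group: 1.35 for Mmp3, 1.34 for Mmp9, 1.07 for Mmp13 and -0.61 for Adamts6. For Mmp3 and Mmp9 both null arrays with GH lay above all 6 other arrays. For Mmp13 the difference comes with a null level close to the dim limit without GH. For Adamts6 the other probe set, dim in null cells with and without GH, was called in the opposite direction (adjusted p = 0.0039). This value is therefore not settled.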

How the results depend on the processing

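With 2 arrays per group and no detection call, dim levels and small differences are poorly resolved, and no setting could replace the authors' background correction. Requiring a 1.5-fold change (limma treat) left 14 members between the genotypes without GH and 14 with it, 2 for the GH response of control cells, 3 for that of null cells and 2 for the interaction of both, which follows from the stricter threshold. Leaving out each array in turn gave 24 to 25, 24 to 29, 3 to 4, 7 to 9 and 2 to 5. The other settings left each count within 1.5 times. Averaging all probe sets of a gene turned Adamts4 in null against control cells with GH to 0.44 and the difference of the GH effects of Adamts6 to 0.13. The other Adamts6 probe set was dim in null cells. The replicate numbers share no stated batch, deviations of arrays with the same number correlated at -0.279 to 0.129 between groups, and with the numbers as a block the 5 counts were 24, 27, 4, 9 and 4. Exchanging the numbers of the GH groups, a pairing added after the correlations were seen, gave 24, 29, 5, 10 and 4. The fit on only the arrays compared has no counterpart for the interaction, which uses all 8.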
